A study of Mus musculus with 6 samples.

Results

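The genes of DNA replication and of entry into S phase were examined in long-term (LT) CML stem cells with and without *Gdpd3*, which encodes a lysophospholipase D. The set holds 40 of the 36976 genes listed for every library and was picked by gene name: the 6 subunits of the MCM2-7 helicase, 8 factors that load or start it, 8 polymerase and primase subunits, 9 genes of the sliding clamp, its loader and the single-strand binding protein RPA, 2 enzymes that finish Okazaki fragments, 4 enzymes of deoxynucleotide synthesis, and 3 regulators of the G1/S step. All 40 were found by symbol and all passed the filter on low values. RNA-Seq was performed on 6 libraries, 3 from *Gdpd3+/+* mice (replicates 1, 2 and 3) and 3 from *Gdpd3-/-* mice (replicates 5, 6 and 7). Both groups were tet-CML mice of the C57BL/6 strain, double transgenic for *SCL-tTA* and *TRE-BCR-ABL1*, in which the tTA activator is driven by the stem cell leukaemia gene's regulatory sequence and *BCR-ABL1* is kept off by doxycycline. The drug was withdrawn at 5 weeks after birth, and bone marrow was taken 5 weeks after that induction. Cells without *BCR-ABL1* were not analysed here, so every value comes from leukaemic marrow. The sorted population was CD150+CD48-CD135-LSK, and the animals numbered 22 males and 12 females for *Gdpd3+/+* and 5 males and 5 females for *Gdpd3-/-*. The knockout is a disrupted mouse line made by genome editing. The paper describes the 3 samples of each genotype as biologically independent. How the animals were divided over the libraries is not stated, so the p-values measure the spread between libraries, which may be partly technical.

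Replication starts where the origin recognition complex, CDC6 and CDT1 load the ring-shaped MCM2-7 helicase onto DNA in G1 phase. In S phase the kinases CDK and DDK bring in CDC45 and GINS, the ring starts to unwind DNA, polymerase alpha-primase lays down primers, and polymerases delta and epsilon extend them with the PCNA clamp, which the RFC complex loads. E2F factors, released from the retinoblastoma protein, switch on most of these genes as cells leave G1, so their messages are widely read as a sign of cycling, and long-term haematopoietic stem cells are known as a largely quiescent population. Ribonucleotide reductase, made of the RRM1 and RRM2 proteins, supplies the deoxynucleotides.

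Words of the kind that E2F factors bind were searched for in the promoters themselves. RefSeq promoters (build GRCm38.p6, 250 bases before to 50 after the start) were given for 32 of the 40 genes. The entries not matched were *Mcm4*, *Gins1*, *Gins2*, *Gins4*, *Prim2*, *Pole*, *Rfc2* and *Ccne2*. A gene with several listed starts was counted for a motif where any of its promoters held it. On either strand, the E2F words TTTCCCGC, TTTGGCGC, TTTCGCGC or TTTGCCGC were found in 12 of 32 genes (37.5%) and in 2.6% of the promoters of 27025 genes. Their cores, the same words without the first T, a choice made after the longer words had been counted, lay in 62.5% of the 32 genes against 10.9% of all. The CCAAT box (CCAAT) lay in 59.4% against 41.1%. The CHR element (TTTGAA), which is known from genes that peak in G2 and M phases, was found in 15.6% against 20.2% of all promoters. These matches are a description of letters and not of bound factors. The promoters of all genes were not matched to those of the set for base composition. The promoters of 4 genes are printed on the gene's own strand, 5′ to 3′, with E2F cores, CCAAT boxes and CHR elements in capitals (as the reverse complement where they lie on the other strand). They belong to the gene with the clearest fall (*Rrm2*), its partner subunit (*Rrm1*), the most abundant helicase subunit (*Mcm6*) and, from 2 starts given for it, the gene with the highest positive fold change (*Pold2*).

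Rrm2, chr12:24708004-24708303, plus strand: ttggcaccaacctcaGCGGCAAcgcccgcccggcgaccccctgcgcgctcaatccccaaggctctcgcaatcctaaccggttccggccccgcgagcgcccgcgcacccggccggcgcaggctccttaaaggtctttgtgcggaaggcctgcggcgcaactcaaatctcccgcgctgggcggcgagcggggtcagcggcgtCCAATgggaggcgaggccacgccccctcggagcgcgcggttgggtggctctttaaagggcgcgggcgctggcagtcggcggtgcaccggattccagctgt

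Rrm1, chr7:102441445-102441744, plus strand: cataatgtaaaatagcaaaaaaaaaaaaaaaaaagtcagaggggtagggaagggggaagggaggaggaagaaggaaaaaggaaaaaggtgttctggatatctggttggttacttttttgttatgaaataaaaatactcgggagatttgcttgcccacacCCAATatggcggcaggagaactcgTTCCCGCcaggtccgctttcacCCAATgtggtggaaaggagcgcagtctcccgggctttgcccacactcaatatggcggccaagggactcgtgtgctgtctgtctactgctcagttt

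Mcm6, chr1:128359656-128359955, minus strand: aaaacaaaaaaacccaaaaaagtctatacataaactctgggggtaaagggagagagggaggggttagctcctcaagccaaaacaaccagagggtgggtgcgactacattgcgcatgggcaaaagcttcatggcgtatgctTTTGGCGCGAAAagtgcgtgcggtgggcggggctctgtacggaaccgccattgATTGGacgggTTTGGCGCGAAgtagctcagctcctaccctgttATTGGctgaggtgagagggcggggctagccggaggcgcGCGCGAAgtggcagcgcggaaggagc

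Pold2, chr11:5878207-5878506, minus strand: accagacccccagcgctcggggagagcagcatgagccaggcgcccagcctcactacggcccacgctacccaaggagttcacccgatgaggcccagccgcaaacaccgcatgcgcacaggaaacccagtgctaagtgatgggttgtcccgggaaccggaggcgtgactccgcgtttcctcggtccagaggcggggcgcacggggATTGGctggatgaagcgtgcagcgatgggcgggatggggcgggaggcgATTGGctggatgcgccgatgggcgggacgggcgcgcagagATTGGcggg

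*Mcm6* carried 5 E2F cores, 3 of them within the longer words, while *Rrm2* and *Rrm1* carried 1 core each and none of the longer words. *Pold2* had 3 CCAAT boxes and no E2F core in this window. The promoter of its other start, not printed, had 2 CHR elements and no CCAAT box, so *Pold2* counts among the genes with a CHR element.

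The values analysed are FPKM (fragments per kilobase of gene, scaled to the depth of the library), a level per length that allows genes to be compared. All 40 genes had reads in every library, although 8 share over 5% of their listed length with another gene (*Fen1*, *Gins2*, *Ccne2*, *Rfc4*, *Mcm7*, *Rfc5*, *Cdc45* and *Lig1*), so that their levels are less certain. Mean FPKM in *Gdpd3+/+* ranged from 6.03 (*Mcm10*) to 147 (*Mcm6*) with a median of 23.7, and 33 of 40 were at 10 FPKM or more in every library. The fewest reads behind any value were about 230 (*Ccne1*), taken as covered bases divided by 150. *Gdpd3* itself was at 7.30, 3.29 and 2.95 FPKM in *Gdpd3+/+* replicates 1, 2 and 3, and at 0.11, 0.0129 and 0.681 FPKM in *Gdpd3-/-* replicates 5, 6 and 7. No library therefore went against its label.

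Some properties of the libraries differ with genotype and stand beside everything that follows. Depth was 4.98 to 6.28 Gb of covered bases in *Gdpd3+/+* and 2.13 to 3.64 Gb in *Gdpd3-/-*. The 11 skeletal muscle markers, none of them at 0 in any library, summed to 780 to 1161 FPKM in *Gdpd3+/+* and to 10097, 14491 and 1914 FPKM in *Gdpd3-/-* replicates 5, 6 and 7. The 8 markers of mature myeloid cells summed to 22969 to 26682 FPKM in *Gdpd3+/+* and 6062 to 12652 FPKM in *Gdpd3-/-*. Of these, *Ltf*, *Camp* and *Ngp* were called lower. Of the 7 progenitor markers *Flt3* and *Cd34* were called higher and *Elane* and *Prtn3* lower, with sums of 6003 to 6921 FPKM against 1424 to 2864 FPKM. All 8 LT stem cell markers, among them *Procr*, *Hlf* and *Kit*, were detected in every library and none was called. Their summed level was 532 to 608 FPKM in *Gdpd3+/+* and 543 to 775 FPKM in *Gdpd3-/-*. The T cell sum was 4.89 to 11.8 FPKM over all libraries. The erythroid sum was 1828 to 2429 FPKM in *Gdpd3+/+* and 1240, 1912 and 2504 FPKM in *Gdpd3-/-* replicates 5, 6 and 7. The megakaryocyte sum was 211 to 307 FPKM against 198, 490 and 203 FPKM. Of the 8 B and plasma cell markers 1 was called lower and 0 higher. The part that depth or these other cell types play in the results was not tested. In such bulk libraries a smaller share of cycling cells and less of a message per cell cannot be told apart.

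The genotypes were compared to learn whether the loss of *Gdpd3* goes with a change in these genes. *Rrm2* was the 1 gene of the set that passed the test, and it was lower in *Gdpd3-/-*. For 28 of 40 genes the libraries of the genotypes overlapped, and 15 of 40 log2 fold changes were positive. Limma was fitted to log2(FPKM + 0.1) of 24689 genes, and a gene was called at a Benjamini-Hochberg adjusted p under 0.05. Of the 40 genes 1 was called (1.71% of all genes tested): 1 lower (0.616% of all) and 0 higher (1.09%). At an unadjusted p under 0.05, *Mcm4*, *Cdc45*, *Gins3*, *Rrm1* and *Rrm2* were lower (5 genes, against 5.76% of all genes) and *Pold2*, *Rfc2* and *Rfc4* higher (3 genes, against 16.5%). All 3 *Gdpd3-/-* libraries lay below all 3 *Gdpd3+/+* libraries for 8 of 40 genes (8.27% of all genes tested): *Mcm4*, *Cdc45*, *Gins3*, *Pole*, *Rrm1*, *Rrm2*, *Tk1* and *Ccne1*. They lay above for 4 genes (23.5% of all): *Gins2*, *Pold2*, *Rfc2* and *Rfc4*. The median log2 fold change of the 40 genes was -0.12, against 0.24 for all genes tested, and 35 of 40 lay below the median of all genes. With TMM scaling, which moves the median of all genes to 0.05, 19 of the 40 genes were without overlap on the lower side (15% of all genes) and 0 on the upper side (14.9%). With quantile normalization, median of all genes -0.01, these counts were 12 (15.5%) and 2 (13.6%). The direction of the genes named without overlap on the lower side was the same under both scalings.

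**Figure D1:**
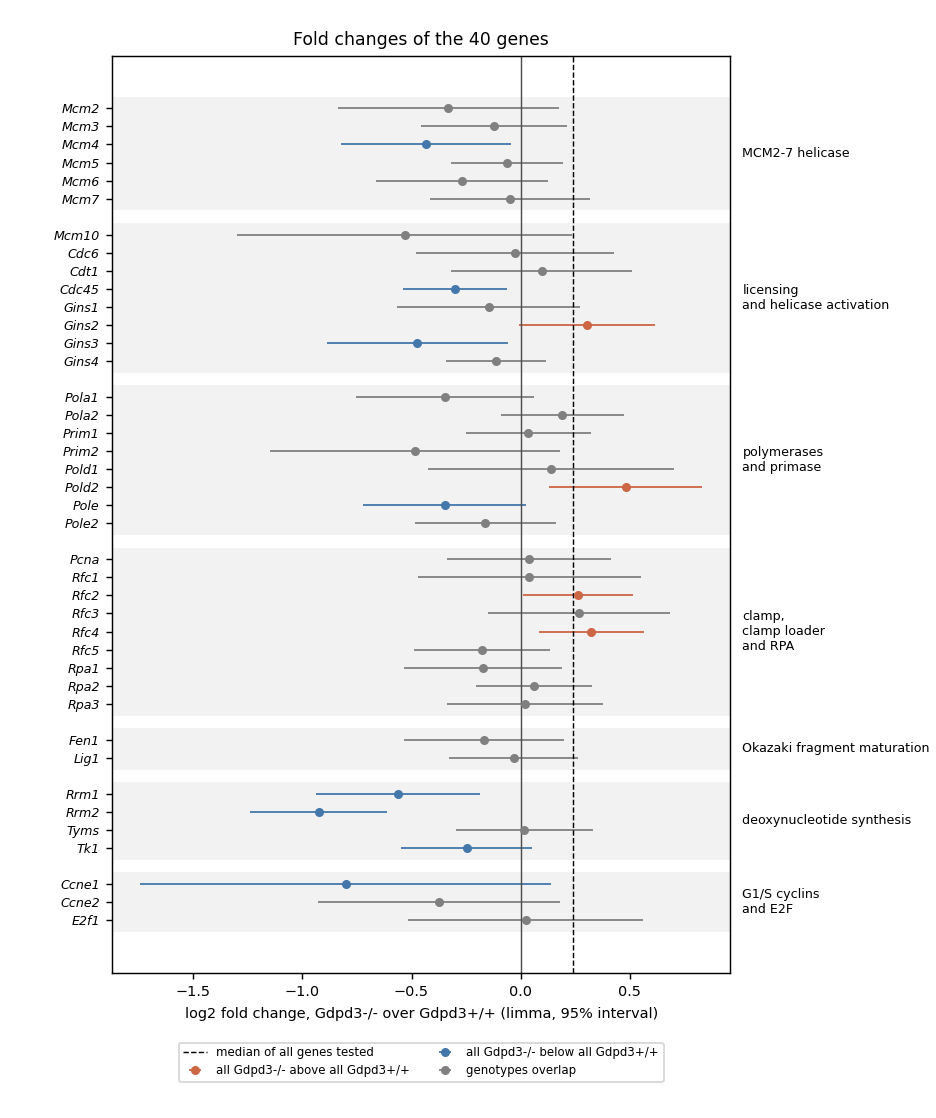
Log2 fold change (*Gdpd3-/-* over *Gdpd3+/+*, x axis) of the 40 genes (y axis, grouped by role), as limma estimates with 95% intervals. Blue marks the 8 genes with all *Gdpd3-/-* libraries below all *Gdpd3+/+* libraries, red the 4 with all above, grey those that overlap; the dashed line is the median of all genes tested (0.24), and 35 points lie to its left.

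On FPKM as deposited, the intervals of most of the genes bound the difference rather than leaving it open. The 95% interval of the log2 fold change stayed within 2-fold either way for 36 of 40 genes and within 1.5-fold for 24. The genes with an interval beyond 2-fold were *Mcm10*, *Prim2*, *Ccne1* and *Rrm2*, and *Rrm2* was the one of them with a small standard error. These bounds depend on scaling, and intervals were not counted under other scalings. With TMM scaling the median of the 40 genes was -0.32 against -0.12 as deposited. *Rrm1*, for example, was then at -0.77 (SE 0.17) and *Mcm4* at -0.64 (SE 0.17).

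The deoxynucleotide enzymes held the clearest difference. *Rrm2*, the small subunit of ribonucleotide reductase that carries its radical and is made in S phase (chr12:25393106-25399011 in the deposited table, whose submitters name build mm9), was at 96.6, 95.5 and 88.7 FPKM in *Gdpd3+/+* and at 43.7, 46.3 and 58.8 FPKM in *Gdpd3-/-* replicates 5, 6 and 7. The highest *Gdpd3-/-* library lay well under the lowest *Gdpd3+/+* library. The mean fell from 93.6 ± 4.28 to 49.6 ± 8.10 FPKM (SD, n = 3 each), which is 53.0% of the *Gdpd3+/+* level. The log2 fold change was -0.93 (SE 0.13, 95% interval -1.24 to -0.61; limma, adjusted p = 0.0334; exact permutation test on mean FPKM, two-sided, p = 0.1, which is the lowest that 20 assignments of 3 and 3 can give). The call was lost with any one library left out other than *Gdpd3-/-* replicate 7: the adjusted p was 0.199 without *Gdpd3+/+* replicate 1, 0.199 without replicate 2, 0.182 without replicate 3, 0.0654 without *Gdpd3-/-* replicate 5, 0.0533 without replicate 6 and 0.00503 without replicate 7. The fold change itself stayed between -1.05 and -0.84 in these 6 fits.

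*Rrm1*, the large, catalytic subunit (chr7:109590209-109618285, mm9), was at 119, 115 and 114 FPKM in *Gdpd3+/+* and at 63.6, 78.3 and 97.1 FPKM in *Gdpd3-/-*. Its groups did not overlap either, although replicate 7 came closer to the *Gdpd3+/+* libraries than replicates 5 and 6. The *Gdpd3-/-* mean was 68.6% of that in *Gdpd3+/+*, and the log2 fold change of -0.56 (SE 0.16) did not pass the test (limma, adjusted p = 0.109). Without *Gdpd3-/-* replicate 7 it did (adjusted p = 0.0198), in a fit that called 3413 genes against 422 with all libraries. With any other single library left out it did not pass (limma, adjusted p 0.137 to 0.332). Summed over both subunits, ribonucleotide reductase stood at 216, 210 and 203 FPKM against 107, 125 and 156 FPKM. The share of *Rrm2* in that sum was 43.7 to 45.4% in *Gdpd3+/+* and 37.1 to 40.7% in *Gdpd3-/-*, so the small subunit was the lower one relative to its partner in every *Gdpd3-/-* library. Such shares and sums were chosen after the values had been seen and are given without a test. None were computed for complexes outside the set, so no rate over other genes stands beside their lack of overlap. *Tk1*, thymidine kinase of the salvage route, was at 15.5, 18.6 and 17.5 FPKM against 15.4, 13.3 and 14.7 FPKM (log2 fold change -0.25; limma, adjusted p = 0.298), and the nearest libraries of the genotypes almost touched. *Tyms*, thymidylate synthase, which makes thymidylate anew, was at 16.5, 19.9 and 19.5 FPKM against 20.04, 19.7 and 16.8 FPKM and overlapped fully (log2 fold change 0.02, 95% interval -0.30 to 0.33).

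**Figure D2:**
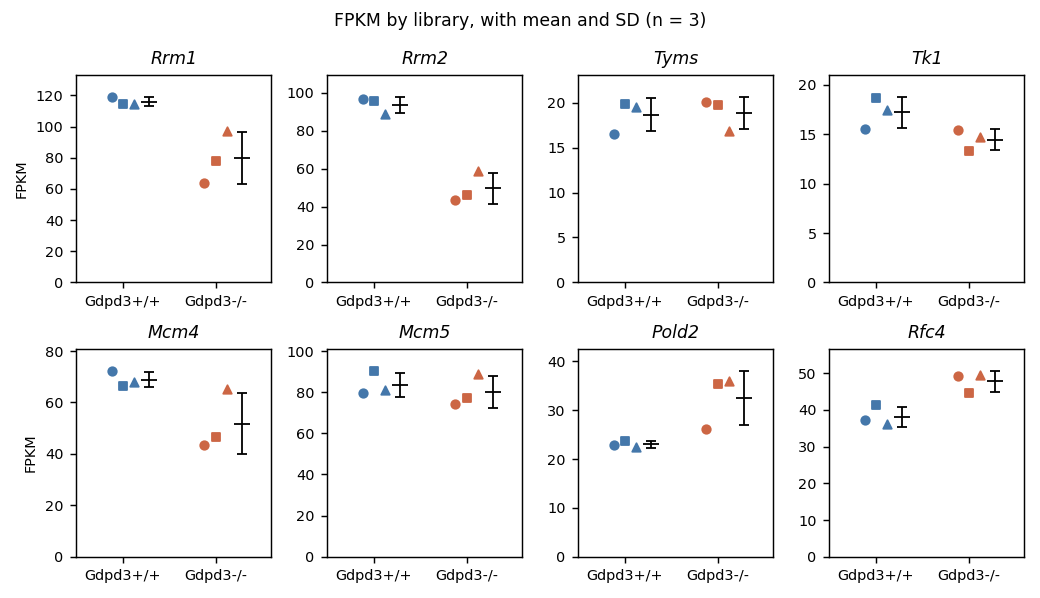
FPKM (y axis, from 0) of 8 genes in each of the 3 *Gdpd3+/+* (blue) and 3 *Gdpd3-/-* (red) libraries (x axis), with mean and SD in black; circles, squares and triangles are replicates 1, 2 and 3 or 5, 6 and 7. *Rrm2* is at 88.7 to 96.6 in *Gdpd3+/+* and 43.7 to 58.8 in *Gdpd3-/-*, while *Tyms* and *Mcm5* overlap and *Pold2* and *Rfc4* lie above.

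The MCM2-7 helicase genes were the most abundant group, with mean levels of 68.9 to 147 FPKM in *Gdpd3+/+*. All 6 had a negative log2 fold change (median -0.20), none was called, and 1, *Mcm4*, was without overlap. *Mcm4* was at 72.2, 66.4 and 68.0 FPKM in *Gdpd3+/+* and 43.3, 46.7 and 65.2 FPKM in *Gdpd3-/-* (log2 fold change -0.44, SE 0.16; limma, adjusted p = 0.187, and 0.0157 without *Gdpd3-/-* replicate 7). With any other single library left out the adjusted p of *Mcm4* was 0.259 to 0.462 (limma). Replicates 5 and 6 were low and replicate 7 lay just under the *Gdpd3+/+* range.

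The same order of the *Gdpd3-/-* libraries held for *Mcm2*, *Mcm3*, *Mcm5* and *Mcm6*. *Mcm2*, whose protein also binds histones, was at 82.7, 90.9 and 84.1 FPKM against 50.7, 67.3 and 93.0 FPKM (log2 fold change -0.33). *Mcm6* was at 145, 150 and 146 FPKM against 97.2, 122 and 153 FPKM (-0.27). *Mcm3* was at 106, 121 and 110 FPKM against 89.3, 98.8 and 124 FPKM (-0.12). In all of these, replicate 7 was the highest of the 6 libraries while replicate 5 was the lowest. *Mcm5* was at 79.4, 90.2 and 80.9 FPKM against 74.3, 77.1 and 89.0 FPKM (-0.06), with a 95% interval of -0.32 to 0.20. *Mcm7*, which shares 12.6% of its length with other genes in the table, among them the microRNA genes *Mir25* and *Mir93* inside it, was at 71.3, 77.4 and 75.2 FPKM against 57.4, 83.7 and 78.1 FPKM (-0.05). It alone of the 6 was highest in replicate 6.

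The ring holds the 6 subunits in equal number, but their messages were not equal in level. In *Gdpd3+/+*, *Mcm6* made up 25.1 to 26.1% of the summed MCM2-7 level and *Mcm4* 11.2 to 12.96%. In *Gdpd3-/-* the share of *Mcm4* was 9.41 to 10.8%, below every *Gdpd3+/+* library, while the shares of the other subunits overlapped. The summed level was 557, 596 and 564 FPKM in *Gdpd3+/+* and 412, 496 and 602 FPKM in *Gdpd3-/-*.

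Among the 8 factors that load or activate the helicase none was called, 6 had a negative and 2 a positive log2 fold change, and the range was -0.53 (*Mcm10*) to 0.30 (*Gins2*). *Cdc45*, which joins MCM2-7 and GINS in the active helicase, was at 32.3, 35.0 and 32.1 FPKM in *Gdpd3+/+* and 27.2, 28.5 and 25.0 FPKM in *Gdpd3-/-* (log2 fold change -0.30, SE 0.10; limma, adjusted p = 0.151). The groups did not overlap, and here replicate 7 was the lowest. *Gins4*, the most abundant of the 8, was at 45.8, 47.3 and 44.8 FPKM against 42.4, 39.5 and 46.0 FPKM (-0.11, 95% interval -0.34 to 0.12).

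The log2 fold changes of the GINS subunits differed in sign, and the differences between subunits were not tested. *Gins3* was at 9.16 to 12.1 FPKM in *Gdpd3+/+* and 6.53 to 8.71 FPKM in *Gdpd3-/-*, whereas *Gins2* was at 8.71 to 9.998 FPKM and 11.1 to 12.8 FPKM. Neither was called (limma, adjusted p = 0.180 for *Gins3* and 0.233 for *Gins2*). With TMM scaling the log2 fold change of *Gins2* was 0.10 and its groups overlapped. The shares of *Gins2* (10.2 to 11.9% against 14.8 to 15.1% of the GINS sum) and *Gins3* (10.7 to 14.6% against 8.86 to 10.1%) were both without overlap, in opposite directions. *Gins2* shares 67.3% of its listed length with *Gse1* on the opposite strand, and whether counting used strand is not stated, so its level is uncertain. *Gins1* overlapped (log2 fold change -0.15). The loaders *Cdc6* (-0.02) and *Cdt1* (0.10) changed sign with processing. *Mcm10*, an activator of the assembled helicase and the least abundant gene of the set, was at 5.48 to 6.52 FPKM against 4.17, 2.63 and 6.40 FPKM in replicates 5, 6 and 7.

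**Figure D3:**
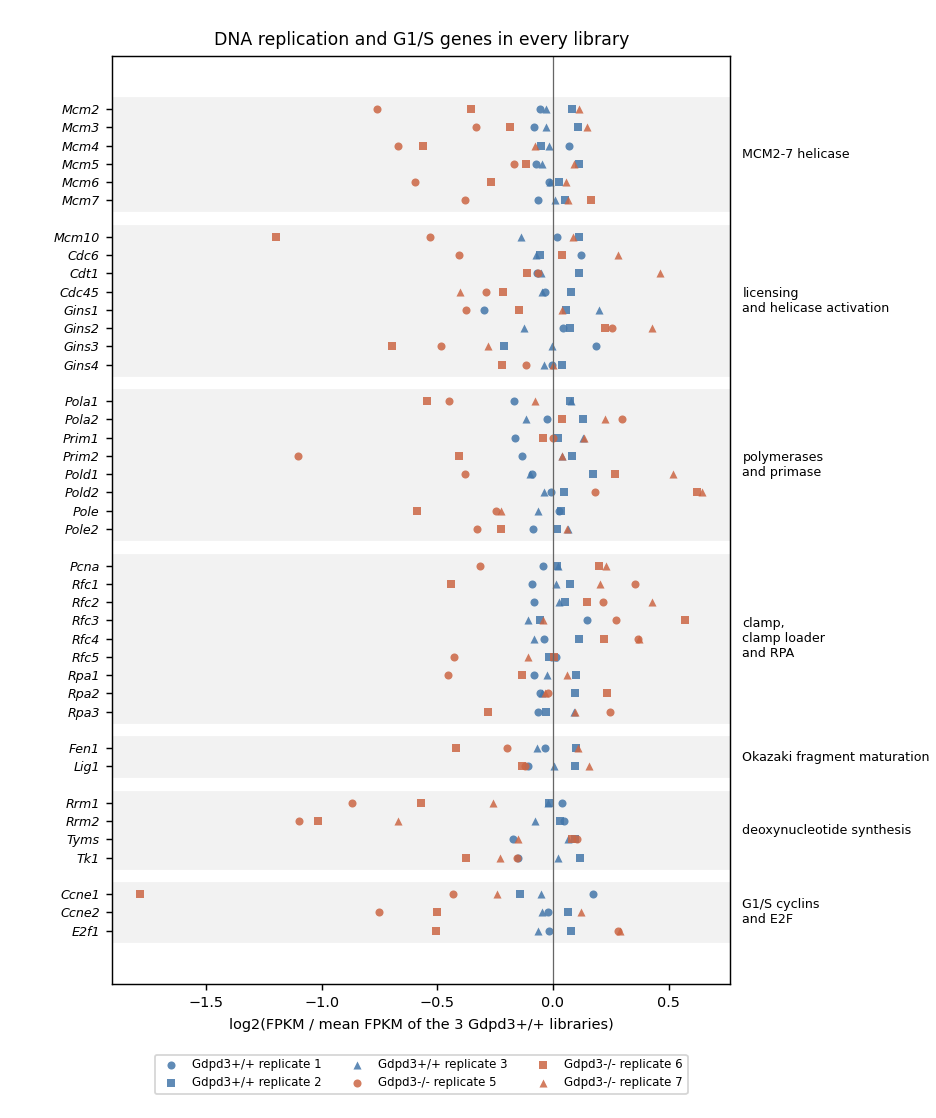
Level of each of the 40 genes (y axis, by role) in each library as log2 of FPKM over the mean of the 3 *Gdpd3+/+* libraries (x axis); blue, *Gdpd3+/+*; red, *Gdpd3-/-*; symbols mark replicates. Replicates 5 and 6 lie mostly to the left, with medians of -0.30 and -0.20, and replicate 7 has a median of 0.08; over all genes tested the medians of replicates 5, 6 and 7 are 0.17, 0.09 and 0.21.

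Of the 8 polymerase and primase genes 4 had a positive and 4 a negative log2 fold change and none was called. *Pold2*, the B subunit of polymerase delta (chr11:5772183-5778295, mm9), was at 22.9, 23.7 and 22.4 FPKM in *Gdpd3+/+* and 26.1, 35.4 and 35.9 FPKM in *Gdpd3-/-*. All *Gdpd3-/-* libraries were above, replicate 5 by the least. The mean was 141% of that in *Gdpd3+/+* and the log2 fold change 0.48 (SE 0.15; limma, adjusted p = 0.126). *Pola2*, the most abundant gene of this group and the B subunit of polymerase alpha, was at 29.0, 32.3 and 27.2 FPKM against 36.3, 30.3 and 34.5 FPKM (0.19, and -0.01 with TMM scaling). The catalytic subunits gave other values: *Pola1* -0.35, *Pold1* 0.14 and *Pole* -0.35. *Pole* was without overlap at 7.94 to 8.51 FPKM against 5.52 to 7.10 FPKM (limma, adjusted p = 0.250). The primase small subunit *Prim1* was at 0.04, and the large subunit *Prim2* at -0.48 with the lowest value, 10.5 FPKM, in replicate 5. *Pole2*, the B subunit of polymerase epsilon, was at -0.16.

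As shares of their complex, *Pola2* and *Pold2* were higher in every *Gdpd3-/-* library than in any *Gdpd3+/+* library, and *Pola1* and *Prim2* lower. *Pola2* made up 31.6 to 36.7% of the alpha-primase sum in *Gdpd3+/+* and 37.4 to 47.2% in *Gdpd3-/-*. *Pola1* made up 11.9 to 12.9% and 9.46 to 10.8%, and *Prim2* 26.2 to 27.1% and 13.7 to 25.3%. *Pold2* made up 51.4 to 55.0% of the *Pold1* and *Pold2* sum in *Gdpd3+/+* and 55.8 to 63.1% in *Gdpd3-/-*, and with 2 subunits the share of *Pold1* is the remainder. For polymerase epsilon the shares overlapped. The share of *Prim1* overlapped too. Shares of a complex add up to its whole, so a higher share of 1 subunit lowers the rest. These shares within a library do not depend on how libraries are scaled to each other by a single factor.

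On FPKM as deposited, the clamp loader was the one complex whose sum was higher in all *Gdpd3-/-* libraries. The sum was not taken under other scalings. All genes tested had a median log2 fold change of 0.24 as deposited. Relative to that median *Rfc4* lay at 0.08, *Rfc3* at 0.03, *Rfc2* at 0.02, *Rfc1* at -0.20 and *Rfc5* at -0.42. The 5 RFC genes together stood at 231, 244 and 236 FPKM in *Gdpd3+/+* and at 268, 262 and 290 FPKM in *Gdpd3-/-*. *Rfc4* was at 37.2, 41.2 and 36.04 FPKM against 49.3, 44.5 and 49.4 FPKM (log2 fold change 0.32, SE 0.10; limma, adjusted p = 0.132, with 12.7% of its length shared with another gene). *Rfc2*, the most abundant of the loader and clamp genes, was at 115, 127 and 124 FPKM against 142, 135 and 164 FPKM (0.26, SE 0.11; limma, adjusted p = 0.207). Both were without overlap as deposited, and under TMM scaling both overlapped, at 0.12 and 0.06. *Rfc3* was at 0.27 and *Rfc1*, the large subunit that opens the clamp, at 0.04, both with overlap. *Rfc5* went the other way (-0.18), and its share of the RFC sum was 14.99 to 16.2% against 10.3 to 14.1%. The share of *Rfc4* was 15.3 to 16.9% against 17.0 to 18.4%, and those of *Rfc1*, *Rfc2* and *Rfc3* overlapped.

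*Pcna*, the clamp itself, was at 115 to 120 FPKM in *Gdpd3+/+* and at 95.1, 136 and 139 FPKM in *Gdpd3-/-*. The *Gdpd3-/-* libraries surrounded the *Gdpd3+/+* range (log2 fold change 0.04, 95% interval -0.34 to 0.41). Reads of *Pcna* may be shared with its pseudogenes in the table, *Pcna-ps1* and *Pcna-ps2*. The RPA genes, which coat single-stranded DNA, gave -0.17 for *Rpa1*, 0.06 for *Rpa2* and 0.02 for *Rpa3*. Their sum was 109 to 117 FPKM in *Gdpd3+/+* and 111 to 117 FPKM in *Gdpd3-/-*, the closest match between the genotypes of the complexes summed here. *Fen1*, the flap endonuclease, was at 25.6, 28.1 and 25.0 FPKM against 22.8, 19.6 and 28.3 FPKM (-0.17), with 84.2% of its length shared with other genes and thus uncertain. *Lig1*, the ligase that seals Okazaki fragments, was at 22.2, 25.5 and 24.0 FPKM against 22.0, 21.8 and 26.6 FPKM (-0.03).

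**Figure D4:**
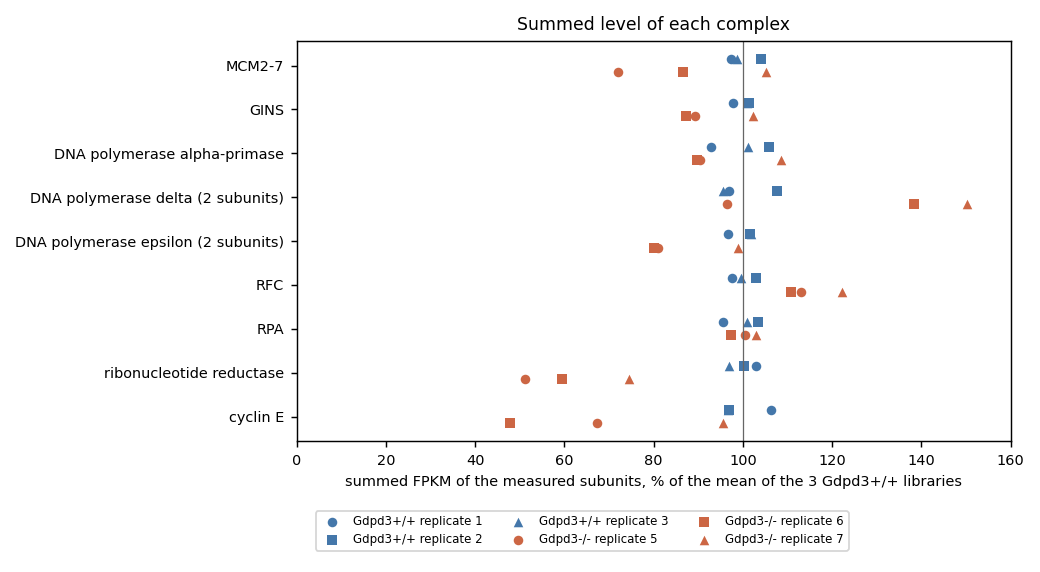
Summed FPKM of the measured subunits of 9 complexes (y axis) in each library, as a percentage of the mean of the 3 *Gdpd3+/+* libraries (x axis, from 0); blue, *Gdpd3+/+*; red, *Gdpd3-/-*. Ribonucleotide reductase lies below (107 to 156 FPKM against 203 to 216) and RFC above (262 to 290 FPKM against 231 to 244) in all *Gdpd3-/-* libraries. Values are FPKM as deposited, where all genes tested had a median log2 fold change of 0.24. Cyclin E and polymerase epsilon spread from low values to just under or within the *Gdpd3+/+* range.

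The G1/S regulators were less abundant. *Ccne1*, which encodes cyclin E1, the partner of CDK2 at S phase entry, was at 13.8, 11.1 and 11.8 FPKM in *Gdpd3+/+* and at 9.07, 3.56 and 10.4 FPKM in *Gdpd3-/-*. The groups did not overlap, but replicate 6 stood far under the rest and the interval was wide (log2 fold change -0.80, SE 0.39, 95% interval -1.74 to 0.14; limma, adjusted p = 0.283). Without replicate 6 the log2 fold change was -0.33. *Ccne2*, cyclin E2, was at 9.95, 10.6 and 9.76 FPKM against 5.98, 7.12 and 11.0 FPKM (-0.37, limma adjusted p = 0.383). Its adjusted p was 0.0450 without *Gdpd3-/-* replicate 7, and 0.452 to 0.631 with any other single library left out (limma). *E2f1*, an activator of the whole programme, was at 17.8, 19.0 and 17.3 FPKM against 21.9, 12.7 and 22.0 FPKM (0.02, 95% interval -0.52 to 0.56), with replicates 5 and 7 above and replicate 6 below every *Gdpd3+/+* library.

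The *Gdpd3-/-* libraries differed among themselves more than the *Gdpd3+/+* libraries did. They also came from fewer animals and had less depth, and the part of these in the spread was not tested. The median SD of log2 values over the 40 genes was 0.09 in *Gdpd3+/+* and 0.25 in *Gdpd3-/-*, and the SD was larger in *Gdpd3-/-* for 35 of 40 genes (87.5%), close to the 86.4% of all genes tested. The order was less common. Replicate 7 was the highest of the *Gdpd3-/-* libraries for 30 of 40 genes (75.0%), against 31.5% of all genes tested and 36.7% of the 6723 genes at a mean of at least 10 FPKM. Replicates 5, 6 and 7 lay below all *Gdpd3+/+* libraries for 27, 25 and 9 genes (67.5, 62.5 and 22.5%), against 27.9, 31.4 and 18.0% of all genes tested. They lay above all *Gdpd3+/+* libraries for 10, 9 and 20 genes (25.0, 22.5 and 50%), against 50.8, 47.5 and 53.5% of all genes. For replicate 7 both shares were thus near those of all genes. The 40 genes summed to 1657, 1752 and 1678 FPKM in *Gdpd3+/+* and to 1396, 1527 and 1787 FPKM in *Gdpd3-/-* replicates 5, 6 and 7. The skeletal muscle sum given above was lowest of the *Gdpd3-/-* libraries in replicate 7 and highest in replicate 6, and its part in this order was not tested. Without replicate 7, 4 of the 40 genes were called lower (*Rrm2*, *Rrm1*, *Mcm4* and *Ccne2*) and 0 higher. That fit called 3413 of all 24056 genes tested, 4.36% lower and 9.83% higher. In it 21 of the 40 genes were without overlap on the lower side (16.8% of all genes) and 5 on the upper side (31.5%).

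Other genes of the same pathways were read from lists made with results of these data known. Their counts stand beside the shares of all genes tested. Of these 8.27% were without overlap on the lower side and 23.5% on the upper side. At an unadjusted p under 0.05 by limma 5.76% were lower and 16.5% higher. Of the 23 further origin and fork genes 0 were called (unadjusted p under 0.05, 0 higher and 5 lower), 7 were without overlap on the lower side and 0 on the upper side, and the median log2 fold change was -0.24. The smallest p-values were those of *Topbp1*, a scaffold for helicase activation, at 30.4, 32.3 and 30.4 FPKM against 21.2, 22.4 and 21.8 FPKM (-0.51; limma, adjusted p = 0.0556, and 0.0297 with TMM scaling), and *Dbf4*, the activator of the CDC7 kinase (-0.48; limma, adjusted p = 0.114). *Topbp1* showed little spread among the *Gdpd3-/-* libraries, replicate 7 included. Of the 15 other polymerase, clamp and maturation genes 0 were called (unadjusted, 0 higher and 3 lower) and 3 were without overlap, all lower. They included *Top2a*, topoisomerase II alpha, which is made in S to M phases, at 38.5, 41.2 and 42.8 FPKM against 17.5, 16.7 and 27.5 FPKM (-1.02; limma, adjusted p = 0.0601), and *Top2b* (-0.60; adjusted p = 0.0812).

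Of 14 other genes of deoxynucleotide supply 0 were called (unadjusted p under 0.05, 1 higher and 0 lower), and the median was 0.09. On the upper side 2 were without overlap (23.5% of all genes tested) and on the lower side 0 (8.27%). The smallest p-values were those of *Dctpp1*, a dCTP pyrophosphatase (0.60; limma, adjusted p = 0.0996), and of the folate enzyme *Mthfd1* (-0.50; adjusted p = 0.235). *Rrm2b*, the small subunit used outside S phase, was at 2.40 to 2.77 FPKM against 2.63 to 3.13 FPKM (0.12) and is named here, after its values were seen, as the relative of *Rrm2*.

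Of 19 other G1/S drivers 0 were called (unadjusted, 4 higher and 6 lower), with a median of -0.05. On the upper side 5 were without overlap (23.5% of all genes tested) and on the lower side 7 (8.27%). *Cdc25a*, the phosphatase that activates CDK2, was at -0.60 (limma, adjusted p = 0.0838) and *Cdk4*, the kinase of the D cyclins, at 0.33 (adjusted p = 0.0902). Of the 10 G1/S brakes tested, *Cdkn2a* being too low to test, 0 were called (unadjusted, 2 higher and 0 lower) and 2 were without overlap on the upper side, a share below the 23.5% of all genes tested: *Cdkn1a*, which encodes p21, at 5.37, 6.64 and 6.71 FPKM against 12.8, 8.04 and 13.2 FPKM (0.83; limma, adjusted p = 0.108), and *Cdkn1b*, which encodes p27, at 2.79, 2.26 and 2.10 FPKM against 3.55, 5.12 and 3.61 FPKM (0.75; adjusted p = 0.143). Of 9 genes of replication-coupled chromatin 0 were called (unadjusted, 0 higher and 1 lower), the lowest p-values being those of the histone chaperone *Asf1b* (-0.56; limma, adjusted p = 0.0649) and of *Chaf1a*, a subunit of chromatin assembly factor 1 (-0.49; adjusted p = 0.268).

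The G2/M genes were lower than the replication genes in their median. Of 23, 19 were without overlap on the lower side (8.27% of all genes tested) and 1 on the upper side (23.5%). The median log2 fold change was -0.53, against -0.12 for the 40 replication and G1/S genes. *Cdk1*, the mitotic kinase, fell from 45.7, 47.8 and 47.5 FPKM to 26.7, 27.8 and 30.9 FPKM and was the one gene of all these related lists to be called (log2 fold change -0.72, SE 0.10; limma, adjusted p = 0.0315). With 1 library left out that call held without *Gdpd3-/-* replicate 6 or 7 and was lost in the other 4 cases. *Ccnb2*, cyclin B2, was at -0.41 (limma, adjusted p = 0.0668). The one gene above, *Ube2c*, was at 111 to 136 FPKM against 748, 1052 and 176 FPKM in replicates 5, 6 and 7, the order of the skeletal muscle sum. The difference between the lists themselves was not tested. RefSeq promoters were given for 19 of the 23 genes, of which 68.4% held a CHR element and 5.26% one of the longer E2F words, the reverse of the 15.6% and 37.5% seen in the replication genes.

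**Figure D5:**
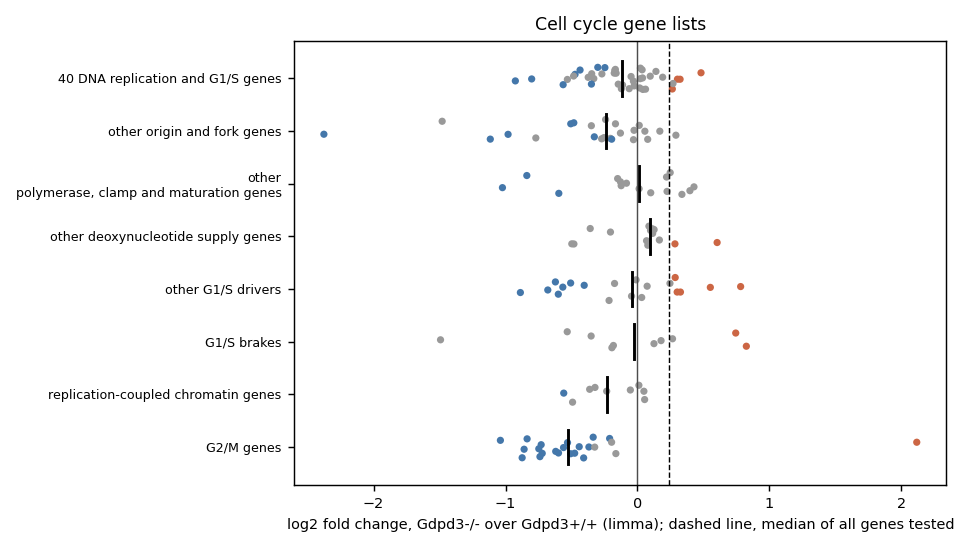
Log2 fold change (*Gdpd3-/-* over *Gdpd3+/+*, limma, x axis) of every tested gene in the 40-gene set and in 7 related lists (y axis); points are spread vertically for legibility only. Black bars are list medians and the dashed line is the median of all genes tested; blue and red mark genes with all *Gdpd3-/-* libraries below or above all *Gdpd3+/+* libraries. The G2/M genes have a median of -0.53 and the 40 genes one of -0.12.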

How the data were processed

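LT-CML stem cells were sequenced as 6 libraries, 3 per genotype, made from total RNA with SMART-Seq v4 and Nextera XT. The authors trimmed paired-end reads of 150 bases, mapped them with STAR (2.6.1a in the submitters' notes, which also name featureCounts 1.6.1 and build mm9) and deposited FPKM values, normalized for gene length and depth; whether strand was used is not stated. Outputs of DESeq2 that the authors deposited too (base mean signal, fold changes, p-values) are not reported. FPKM times gene length gave whole numbers, taken as covered bases, from which depth was derived; no count model was fitted.

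Genes whose mean FPKM reached 0.05 were tested on log2(FPKM + 0.1) in limma 3.58.1 (R 4.3.3), using a trended prior and a genotype term alone, and p-values were adjusted by Benjamini-Hochberg over these 24689 genes; the code was tested on simulated data. Fold changes are on that log2 scale. Mean FPKM of single genes was compared by two-sided exact permutation tests (SciPy 1.17.1). Other settings tried were a pseudocount of 0.01 or 1, a filter removed or raised to 1 FPKM, TMM scaling (trimming 30% of M and 5% of A) or quantile normalization in place of the FPKM as deposited, limma without the trend or with array weights, and each library omitted in turn. The members and lists were chosen with earlier results of these data known. Every member is named; values per library are given for called genes, MCM2-7 and, in each other role, the gene of smallest p and the most abundant one, and related lists are represented by their 2 smallest p-values. Genes named only for lack of overlap, and the complex shares, were chosen after the values were seen. RefSeq promoters (GRCm38.p6) were searched for motifs, chromosome 18 left out; their coordinates are not those of the deposited table.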

Additional observations from a re-analysis of the deposited data

How the results depend on the processing

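No paired analysis was possible because the genotypes share no replicate number. Over 14 alternatives 505 of 560 comparisons of single members kept direction and call, 7 lost the call (all *Rrm2*), 3 gained one (*Mcm4*, *Rrm1* and *Ccne2* without *Gdpd3-/-* replicate 7) and 45 changed sign; 27 of 40 genes kept their sign throughout. The 422 genes called in all (270 higher, 152 lower) became 576 with a pseudocount of 0.01, 225 with a pseudocount of 1, 213 without the filter, 673 at a mean FPKM of at least 1, 153 without the trend and 240 with array weights, and, with 1 library left out, 0 (without *Gdpd3+/+* replicate 1), 1 (replicate 2), 21 (replicate 3), 187 (without *Gdpd3-/-* replicate 5), 462 (replicate 6) and 3413 (replicate 7). TMM scaling called 118 higher and 237 lower and quantile normalization 119 and 206. Members called numbered 0 without the filter (*Rrm2* adjusted p = 0.0503 by limma) and 0 without the trend (0.117), 1 in each other alternative with all libraries and 0 to 4 with 1 library left out (4 without *Gdpd3-/-* replicate 7, 0 in the other 5 cases). Related genes called numbered 1, and 2 with a pseudocount of 0.01, 4 at a mean FPKM of at least 1, 8 with TMM scaling, 5 with quantile normalization, 0 without the trend and 0 to 20 with 1 library left out (20 without *Gdpd3-/-* replicate 7). The members' median of -0.12 became -0.32 with TMM scaling and lay between -0.19 and -0.07 with 1 library left out; relative to all genes it lay between -0.41 and -0.24 throughout. The 12 members without overlap became 19 with TMM scaling and 12 to 26 with 1 library left out (26 without *Gdpd3-/-* replicate 7). The shares of all genes moved too, from 8.27% on the lower and 23.5% on the upper side. They became 15% and 14.9% with TMM scaling. With 1 library left out they were 9.7 to 16.8% on the lower and 25.6 to 34.7% on the upper side.

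Signs that turned belonged to genes with a log2 fold change of -0.05 (*Mcm7*) to 0.19 (*Pola2*) in the main fit. With TMM scaling these were *Cdt1* (-0.11), *Pola2* (-0.013), *Prim1* (-0.17), *Pold1* (-0.063), *Pcna* (-0.17), *Rfc1* (-0.16), *Rpa2* (-0.14), *Rpa3* (-0.18), *Tyms* (-0.19) and *E2f1* (-0.18). With quantile normalization they were *Cdt1* (-0.011), *Prim1* (-0.074), *Pcna* (-0.15), *Rfc1* (-0.053), *Rpa2* (-0.077), *Rpa3* (-0.12), *Tyms* (-0.095) and *E2f1* (-0.070), and with array weights *Cdc6* (0.027) and *Tyms* (-0.031). With 1 library left out the ranges were *Mcm7* -0.16 to 0.12, *Cdc6* -0.18 to 0.16, *Cdt1* -0.086 to 0.20, *Prim1* -0.044 to 0.10, *Pold1* -0.050 to 0.40, *Pcna* -0.057 to 0.21, *Rfc1* -0.12 to 0.28, *Rpa2* -0.025 to 0.11, *Rpa3* -0.091 to 0.17, *Lig1* -0.12 to 0.019, *Tyms* -0.066 to 0.098 and *E2f1* -0.11 to 0.28. The cause was not tested.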

Other observations

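For the 32 genes with a promoter, the median log2 fold change was read with and without each motif. It was -0.06 for the 12 genes with one of the longer E2F words and -0.08 for the 20 without, and -0.04 for the 20 with an E2F core and -0.17 for the 12 without. It was -0.12 for the 19 with a CCAAT box and -0.02 for the 13 without. For the CHR element it was -0.30 for the 5 genes with it and -0.03 for the 27 without. With so few genes these medians are descriptions only, and the difference was not tested.

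The share of all covered bases that fell on the 40 genes was 0.543, 0.574 and 0.549% in *Gdpd3+/+* and 0.440, 0.491 and 0.574% in *Gdpd3-/-* replicates 5, 6 and 7.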
